A study of Mus musculus with 7 samples.

Results

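The genes described here are 10 genes of the pericellular matrix and the basement membrane: the collagen VI chain genes Col6a1, Col6a2 and Col6a3, the collagen IV chain genes Col4a1 and Col4a2, the perlecan gene Hspg2, the nidogen genes Nid1 and Nid2, and the laminin chain genes Lamb1 and Lamc1. They were taken by gene name from the deposited table of counts, which holds 52459 gene names, and each of the 10 names was present. All 10 were among the 13367 genes with enough counts to be tested. RNA was sequenced in bulk from mouse articular chondrocytes, the cells of joint cartilage, which were isolated from the femoral head by digestion and cultured with fetal bovine serum. The cells received vehicle (replicates 1 and 2), TGFβ1 at 5 ng/ml (replicates 1 and 3) or BMP2 at 100 ng/ml (replicates 1, 2 and 3), each for 24 h. No genotype, strain or age of the mice is given, and serum was part of the stated culture medium of every group. Nothing says whether replicates came from separate animals or cultures, so the p-values reflect only the spread of these libraries within a group, which may be technical. In bulk RNA, fewer cells of a type and less RNA per cell cannot be told apart.

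Each chondrocyte in cartilage is wrapped in a thin pericellular matrix, which together with the cell is called the chondron. Collagen VI is its hallmark: an α1, an α2 and an α3 chain join into a monomer that assembles into beaded microfilaments around the cell. The other genes encode parts of basement membranes, the sheets under epithelia and around vessels, muscle fibres and fat cells. There, laminin trimers of an α, a β and a γ chain form a network at the cell surface and collagen IV forms a network of its own. Nidogens bridge the networks, and perlecan, a large heparan sulfate proteoglycan, binds both and holds growth factors. Cartilage has no such sheet, yet perlecan is abundant around chondrocytes, and collagen IV, nidogens and laminins have been described in the pericellular matrix.

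The chromosomal arrangement of the collagen genes is shown first because some of the chains that share a molecule are encoded near each other. Positions are those of the mm10 build. Col6a1 (chr10:76708792-76726168) and Col6a2 (chr10:76595762-76623630) lie on the minus strand of chromosome 10 with 85.2 kb between them, and Col6a3 (chr1:90765923-90843971) lies alone on the minus strand of chromosome 1. Col4a1 (chr8:11198423-11312826, minus strand) and Col4a2 (chr8:11312805-11449287, plus strand) are transcribed away from each other from start sites 21 bases apart, so that their annotated first exons share 22 bases. Hspg2 lies at chr4:137468769-137570630 (plus strand), Nid1 at chr13:13437551-13512269 (plus strand), Nid2 at chr14:19751265-19811787 (plus strand), Lamb1 at chr12:31265234-31329644 (plus strand) and Lamc1 at chr1:153218922-153332786 (minus strand).

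Promoter sequence from RefSeq (GRCm38.p6, the assembly behind mm10) was matched for 8 members, all but Nid2 and Lamc1. The stretches below are the bases before the annotated start of the 3 collagen VI genes and of Hspg2, the members with a window whose BMP2 libraries all lay above the vehicle libraries, beside the shared start of the collagen IV pair, whose genes fell with both ligands. Each is written 5′ to 3′ on the strand of its gene. Capitals mark the GC box GGGCGG on either strand, except in the collagen IV stretch, where they mark the bases that both first exons hold.
Col6a1, chr10:76726169-76726294, minus strand: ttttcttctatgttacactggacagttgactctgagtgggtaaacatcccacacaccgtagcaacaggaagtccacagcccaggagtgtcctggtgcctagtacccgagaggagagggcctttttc
Col6a2, chr10:76623631-76623880, minus strand: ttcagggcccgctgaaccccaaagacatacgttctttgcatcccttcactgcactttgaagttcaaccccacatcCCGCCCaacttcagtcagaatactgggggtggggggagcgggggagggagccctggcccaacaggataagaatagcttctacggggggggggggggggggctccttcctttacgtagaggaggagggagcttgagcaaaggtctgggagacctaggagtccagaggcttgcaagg
Col6a3, chr1:90843972-90844221, minus strand: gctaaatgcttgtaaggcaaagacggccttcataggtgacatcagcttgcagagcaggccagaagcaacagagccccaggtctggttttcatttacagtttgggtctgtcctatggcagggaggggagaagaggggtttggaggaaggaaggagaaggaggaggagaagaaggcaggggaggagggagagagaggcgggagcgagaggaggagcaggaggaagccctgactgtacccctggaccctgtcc
Hspg2, chr4:137468553-137468768, plus strand: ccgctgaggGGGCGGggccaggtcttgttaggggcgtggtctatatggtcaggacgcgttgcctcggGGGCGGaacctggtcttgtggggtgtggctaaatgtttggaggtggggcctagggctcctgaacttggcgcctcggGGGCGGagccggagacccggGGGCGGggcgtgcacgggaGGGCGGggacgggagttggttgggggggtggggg
Col4a1 and Col4a2, chr8:11312801-11312830, plus strand: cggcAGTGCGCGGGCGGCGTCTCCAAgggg
In windows of 300 bases (250 before and 50 after the RefSeq start), the collagen VI genes had a GC content of 57.3% (Col6a1), 56.7% (Col6a2) and 56.3% (Col6a3), below the 74.0% of Col4a1, 73.7% of Col4a2 and 70.3% of Hspg2. The GC box was found 5 times in the window of Hspg2, 3 times in that of Col4a2, 2 times in that of Lamb1, and once in those of Col4a1, Col6a2 and Nid1, and was absent from those of Col6a1 and Col6a3. Of 32851 windows of that length, 35.7% hold it on either strand. The CCAAT box, held by 37.4% of windows, was in those of Col4a1, Col4a2, Nid1 and Lamb1. The SMAD-binding palindrome GTCTAGAC, held by 0.2% of windows, was in none of the 8 windows, and the GC-rich element GGCGCC, held by 11.9%, was in those of Col4a1, Hspg2 and Lamb1. The windows of Col4a1 and Col4a2 overlap, so their matches are not separate. A match describes letters in these windows and is not a measured binding site.

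The total count lay between 6747997 and 18047765 per library, and the 10 genes held 0.169% to 0.581% of it. Both TGFβ1 libraries were set off from the remaining 5: ribosomal protein genes held 6.12% and 6.16% of their counts against 1.01% to 1.35% elsewhere, and the log2 fold change of TGFβ1 against vehicle went down with transcript length, from a median of 2.91 in 603 genes of at most 750 nt to −0.61 in 271 genes above 10000 nt. For BMP2 against vehicle the same medians lay between −0.08 and 0.08. The principal transcripts of the 10 genes run from 3949 nt (Col6a2) to 14176 nt (Hspg2), where the median for TGFβ1 was −0.14 to −0.61. Values with an offset fitted to transcript length and base composition (GC content), called the length offset below, are therefore given for the 10 genes in each comparison with TGFβ1, and for other genes where the offset changes a printed call or moves a printed value by over 1.5 times. Both TGFβ1 libraries share this trend, so the ligand and the trend cannot be told apart. BMP2 replicate 1 differed more from its fellow replicates than they did from each other (chi-square per gene of 13.2 and 17.3, and 1.81 between the others), and for each of the 10 genes where it was the highest or lowest BMP2 library a value without it is given. The same measure was 41.1 between the TGFβ1 libraries, the deepest pair, and 4.36 between the vehicle libraries. Below, levels are CPM, counts relative to the library size after TMM scaling, changes are log2 fold changes with their standard error (SE), and a gene rose, fell or changed where its Benjamini-Hochberg adjusted p in edgeR's quasi-likelihood test was under 0.05. Both comparisons with vehicle use the same 2 vehicle libraries.

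**Figure D1:**
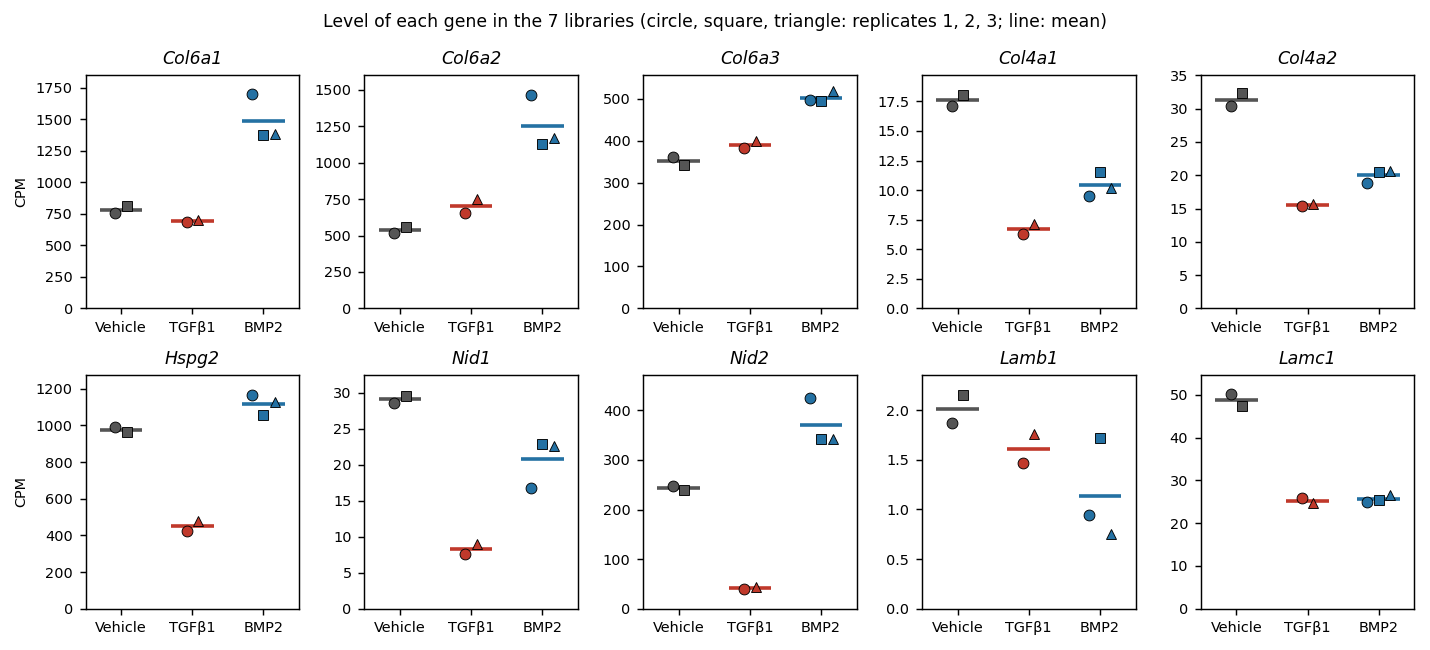
Level of each of the 10 genes in each library, in CPM on linear axes from 0, with 1 panel per gene; symbols are single libraries (circle, square and triangle for replicates 1, 2 and 3) and lines are group means. The collagen VI genes are highest with BMP2, and Nid2 and Hspg2 are lowest with TGFβ1.

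With vehicle, the genes spanned a wide range of levels per kilobase of gene length. Col6a1 was highest, at 179 ± 9.42 CPM per kb (SD, n = 2). Hspg2 followed at 68.3 ± 1.40, Col6a2 at 64.7 ± 3.15, Nid2 at 47.2 ± 1.04 and Col6a3 at 29.4 ± 1.18 CPM per kb. The other 5 were far lower: Lamc1 stood at 5.91 ± 0.239, Col4a2 at 4.73 ± 0.207, Nid1 at 4.19 ± 0.0945, Col4a1 at 2.36 ± 0.0896 and Lamb1 at 0.203 ± 0.0200 CPM per kb. The 2 libraries of each gene lay apart from those of its neighbours in this order, though Hspg2 and Col6a2 lay close, with 67.3 and 69.3 against 62.4 and 66.9 CPM per kb. The length deposited by the authors counts all exons of a gene. With the length of the principal transcript instead, Col6a2 came second at 136 CPM per kb, ahead of Hspg2 at 68.9. Transcripts of the chondron's hallmark collagen, of perlecan and of nidogen-2 thus stood above those of collagen IV, nidogen-1 and the laminin β1 and γ1 chains in these cells.

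The collagen VI genes rose with BMP2. Col6a1, which encodes the α1 chain, stood at 755 and 814 CPM with vehicle, 686 and 706 with TGFβ1, and 1700.4, 1379 and 1385 with BMP2. The BMP2 libraries all lay above the other 4, and BMP2 replicate 1 was the highest. Col6a1 rose 1.90-fold with BMP2 against vehicle (log2 fold change 0.92, SE 0.14, edgeR adjusted p = 0.00173), and by 0.82 without BMP2 replicate 1. With TGFβ1 its value against vehicle was −0.17 (SE 0.14, adjusted p = 0.330), which did not pass although the 2 groups did not overlap. BMP2 stood above TGFβ1 by 1.10 (SE 0.14, adjusted p = 5.23e-05). With the length offset these values against TGFβ1 were −0.19 and 1.18.

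Col6a2, the gene of the α2 chain, stood at 519.8 and 557 CPM with vehicle, 655 and 751 with TGFβ1, and 1466, 1125 and 1168 with BMP2. The groups did not overlap, and BMP2 was the highest. The rise with BMP2 was 2.33-fold (1.22, SE 0.15, adjusted p = 0.000584), and 1.09 without BMP2 replicate 1, and BMP2 exceeded TGFβ1 by 0.83 (SE 0.15, adjusted p = 0.000618). Against vehicle the value with TGFβ1 was 0.39 (SE 0.16) and did not pass (adjusted p = 0.0595). With the length offset it was 0.34 (adjusted p = 0.0549), and BMP2 against TGFβ1 was 0.94. The value against vehicle passed in 4 of 14 alternatives, among them the fit without BMP2 replicate 1 (0.38, adjusted p = 0.00918) and the one limited to transcripts of at least 2000 nt (0.58).

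Col6a3 encodes the α3 chain, the longest of the 3, whose C-terminal end is cut off as endotrophin. It stood at 362 and 342 CPM with vehicle, 382 and 399 with TGFβ1, and 496, 494 and 517 with BMP2. Its BMP2 libraries differed little from each other and lay above the rest. The rise with BMP2 was 1.43-fold (0.51, SE 0.11, adjusted p = 0.0141), smaller than those of Col6a1 and Col6a2, a difference that was not tested between genes. It no longer passed without vehicle replicate 1 (0.56, adjusted p = 0.108), without vehicle replicate 2 (0.48, adjusted p = 0.176) or without BMP2 replicate 3 (0.49, adjusted p = 0.0653). The transcript is 9001 nt long, and here the length offset mattered. The value for TGFβ1 against vehicle was 0.15 (SE 0.12, adjusted p = 0.311) and became 0.55 with the offset, which passed (adjusted p = 0.00235). BMP2 against TGFβ1 was 0.36 (SE 0.11, adjusted p = 0.0153) and 0.10 with the offset, which did not pass (adjusted p = 0.457).

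The collagen IV pair fell with both ligands. Col4a1 and Col4a2 encode the α1 and α2 chains, which join into the most widespread collagen IV. Col4a1 stood at 17.1 and 18.1 CPM with vehicle, 6.33 and 7.18 with TGFβ1, and 9.52, 11.5 and 10.2 with BMP2. Col4a2 stood at 30.4 and 32.3 CPM with vehicle, 15.4 and 15.7 with TGFβ1, and 18.9, 20.6 and 20.6 with BMP2. For both genes the 3 groups were separate, with vehicle highest and TGFβ1 lowest. With TGFβ1, Col4a1 fell 2.61-fold (−1.38, SE 0.17, adjusted p = 5.21e-05) and Col4a2 2.01-fold (−1.01, SE 0.13, adjusted p = 8.02e-05); with the length offset the falls were −1.18 and −0.78. With BMP2, Col4a1 fell 1.70-fold (−0.77, SE 0.15, adjusted p = 0.00765) and Col4a2 1.57-fold (−0.65, SE 0.12, adjusted p = 0.00526). Without vehicle replicate 2 neither fall with BMP2 passed (−0.72 and −0.60, adjusted p = 0.0855 and 0.0747), nor did that of Col4a1 without vehicle replicate 1 (−0.80, adjusted p = 0.0505). Without BMP2 replicate 1 they were −0.71 and −0.61 and passed (adjusted p = 0.0159 and 0.00908). BMP2 stood above TGFβ1 by 0.61 for Col4a1 (SE 0.16, adjusted p = 0.00571) and by 0.36 for Col4a2 (SE 0.12, adjusted p = 0.0220). The latter did not pass with the length offset (0.26, adjusted p = 0.106), with DESeq2 (0.39, adjusted p = 0.0786), or without either TGFβ1 library or BMP2 replicate 2 or 3. The value for Col4a1 did not pass without TGFβ1 replicate 1 (0.52, adjusted p = 0.0501), and was 0.54 with the offset.

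Hspg2, which encodes the core protein of perlecan, was lowest with TGFβ1. It stood at 991 and 963 CPM with vehicle, 425 and 481 with TGFβ1, and 1167, 1058 and 1128 with BMP2. The TGFβ1 libraries lay below all others, and the BMP2 libraries lay just above the vehicle libraries. Hspg2 fell 2.16-fold with TGFβ1 (−1.11, SE 0.13, adjusted p = 4.82e-05). Its transcript of 14176 nt is the longest among the 10, and with the length offset the fall was −0.61 (adjusted p = 0.00172). The value for BMP2 against vehicle was 0.19 (SE 0.12) and did not pass (adjusted p = 0.353), nor did it without BMP2 replicate 1 (0.16, adjusted p = 0.345). BMP2 exceeded TGFβ1 by 1.30 (SE 0.12, adjusted p = 6.8e-06), and by 0.96 with the offset.

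The nidogens, which link laminin to collagen IV, gave the widest difference between the ligands. Nid2 stood at 248 and 240.3 CPM with vehicle, 40.8 and 44.6 with TGFβ1, and 426, 343 and 343 with BMP2. The groups were far apart, with TGFβ1 below and BMP2 above vehicle. Nid2 fell 5.72-fold with TGFβ1 (−2.52, SE 0.15, adjusted p = 2.99e-07, and −2.38 with the length offset). It rose 1.52-fold with BMP2 (0.60, SE 0.13, adjusted p = 0.0160, and 0.49 without BMP2 replicate 1), so that BMP2 exceeded TGFβ1 8.68-fold (3.12, SE 0.15, adjusted p = 3.5e-08, and 3.09 with the offset). The rise with BMP2 did not pass without vehicle replicate 1 (0.63, adjusted p = 0.112) or vehicle replicate 2 (0.58, adjusted p = 0.157). Of the exon bases of Nid2, 8.45% overlap Rtraf on the opposite strand, and whether reads were counted by strand is not stated in the sources used here.

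Nid1 stood at 28.6 and 29.5 CPM with vehicle, 7.65 and 8.93 with TGFβ1, and 16.7, 22.9 and 22.6 with BMP2. The groups did not overlap, and here both ligands lay below vehicle, with BMP2 replicate 1 the lowest of its group. Nid1 fell 3.51-fold with TGFβ1 (−1.81, SE 0.18, adjusted p = 1.47e-05, and −1.45 with the offset). The value for BMP2 was −0.49 (SE 0.16), which did not pass (adjusted p = 0.0706), and −0.36 without BMP2 replicate 1 (adjusted p = 0.0987). It passed in 2 of 14 alternatives, at −0.48 without the filter on low counts and −0.49 in transcripts of at least 2000 nt. BMP2 exceeded TGFβ1 by 1.32 (SE 0.17, adjusted p = 7.1e-05), and by 1.03 with the offset. A share of 2.06% of the exon bases of Nid1 overlaps Gm48682 on the opposite strand.

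Among the laminin chains, Lamc1 fell with either ligand. Lamc1 encodes γ1, the γ chain of most laminins. It stood at 50.3 and 47.5 CPM with vehicle, 25.9 and 24.7 with TGFβ1, and 24.96, 25.5 and 26.6 with BMP2. Both ligands lay below vehicle, and their libraries overlapped each other. Lamc1 fell 1.93-fold with TGFβ1 (−0.95, SE 0.12, adjusted p = 6.51e-05) and 1.90-fold with BMP2 (−0.93, SE 0.11, adjusted p = 0.000364). With the length offset the fall with TGFβ1 was −0.57 (adjusted p = 0.00178). Without BMP2 replicate 1 the fall with BMP2 was −0.91. The difference between the ligands was 0.02 (SE 0.11, adjusted p = 0.870), and −0.24 with the offset (adjusted p = 0.0760).

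Lamb1, the gene of the β1 chain, had few counts, with 14 and 18 counts with vehicle, 20 and 23 with TGFβ1, and 11, 13 and 8 with BMP2. As CPM these are 1.87 and 2.15, 1.47 and 1.76, and 0.944, 1.72 and 0.752. The vehicle libraries were the highest, and the ligand groups overlapped. No comparison passed: TGFβ1 against vehicle was −0.32 (SE 0.41, adjusted p = 0.521), BMP2 against vehicle −0.88 (SE 0.41, adjusted p = 0.211) and BMP2 against TGFβ1 −0.56 (SE 0.39, adjusted p = 0.234). With the length offset the 2 values against TGFβ1 were −0.09 and −0.70, and neither passed. BMP2 against TGFβ1 passed in 1 of 21 alternatives, with the offset and without BMP2 replicate 2 (−1.04, adjusted p = 0.0489). The other β chain genes were read from the list of related genes. Lamb2, named here after its values were seen, stood at 60.6 and 64.0 CPM with vehicle, 44.4 and 52.1 with TGFβ1, and 46.2, 43.0 and 43.4 with BMP2. Per kb of gene length Lamb2 was at 10.2 and Lamb1 at 0.203 CPM with vehicle. Lamb2 fell by 0.37 with TGFβ1 (adjusted p = 0.0261) and by 0.49 with BMP2 (adjusted p = 0.0181), calls that held in 8 and 9 of 14 alternatives. With the length offset the value with TGFβ1 was −0.25 and did not pass (adjusted p = 0.0782). Lamb3, the β chain of epithelial laminin-332, rose with TGFβ1 from 10.2 and 10.3 to 94.8 and 87.2 CPM (3.15, SE 0.15, adjusted p = 3.75e-08) and with BMP2 to 17.5, 19.8 and 21.4 CPM (0.93, SE 0.14, adjusted p = 0.00205). It was thus higher with both ligands, whereas Lamc1 was lower.

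The laminin α chains carry the sites for cell receptors. Lama4 was the most abundant of them, at 29.3 and 24.6 CPM with vehicle, 12.7 and 11.4 with TGFβ1, and 34.1, 35.0 and 35.4 with BMP2. It fell with TGFβ1 (−1.16, SE 0.14, adjusted p = 5.62e-05), did not pass with BMP2 (0.37, SE 0.12, adjusted p = 0.0849), and was 1.53 higher with BMP2 than with TGFβ1. With the length offset these values were −0.79, 0.45 and 1.24, and all passed (adjusted p = 0.0320 for BMP2 against vehicle). Lama5 stood at 19.7 and 16.5 CPM with vehicle, 3.60 and 3.66 with TGFβ1, and 6.86, 5.04 and 6.87 with BMP2, with no overlap between the groups. It fell with TGFβ1 by 2.31 (SE 0.21, adjusted p = 5.45e-06) and with BMP2 by 1.51 (SE 0.18, adjusted p = 4e-04). Lama1 did not exceed 2.23 CPM in any library, with 6 and 6 counts with vehicle, 1 and 7 with TGFβ1, and 26, 9 and 22 with BMP2. It passed the filter on low counts only through the BMP2 libraries. Its call between the ligands (2.60, SE 0.58), the only one it had, is therefore not read as a change. Lama2 and Lama3 had too few counts to be tested.

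**Figure D2:**
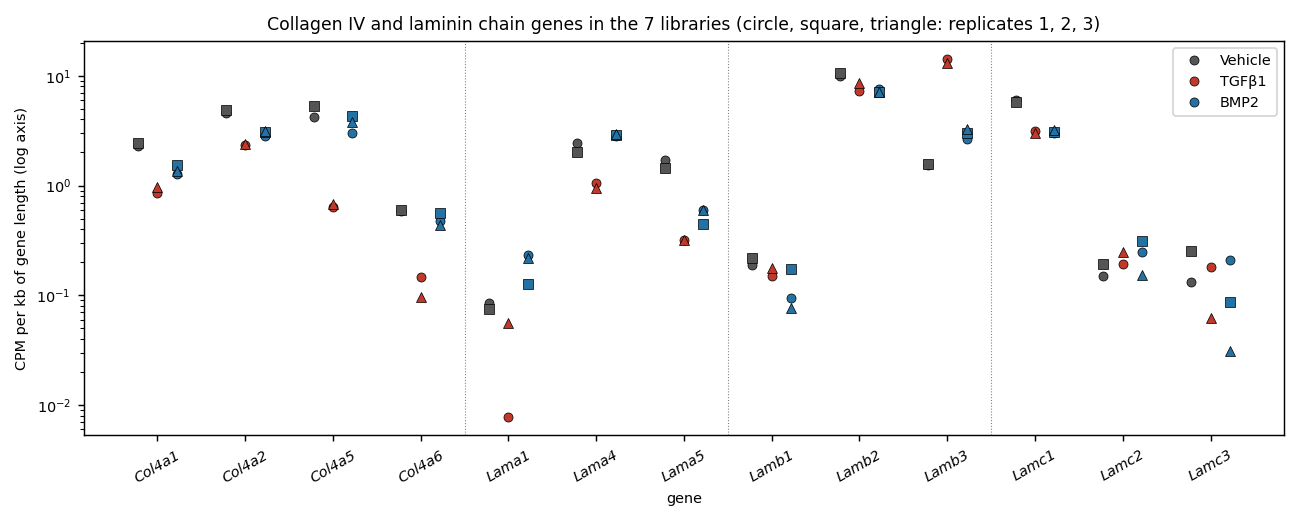
Level of collagen IV and laminin chain genes as CPM per kb of gene length on a log axis; symbols are single libraries (circle, square and triangle for replicates 1, 2 and 3) coloured by group. Lamb2 lies above Lamb1 in every library, and Lamb3 is highest with TGFβ1.

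**Figure D3:**
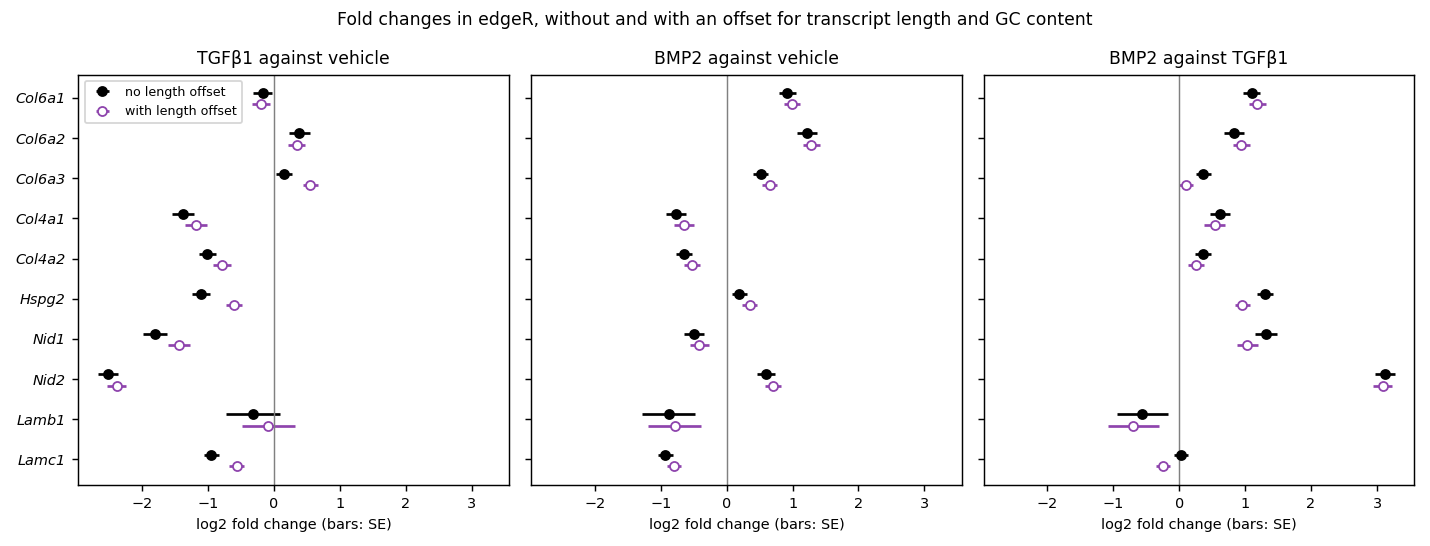
Log2 fold change of each gene with its standard error (bars) in the 3 comparisons, without the length offset (filled) and with it (open), where 0 means no difference. The 3 collagen VI genes lie above 0 for BMP2 against vehicle, and the collagen IV, nidogen, perlecan and Lamc1 values lie below 0 for TGFβ1 against vehicle in both fits.

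Counted together, 0 of the 10 genes rose and 6 fell with TGFβ1 against vehicle (Col4a1, Col4a2, Hspg2, Nid1, Nid2 and Lamc1), where 56.2% of all tested genes changed, 30.4% upwards and 25.8% downwards. The median of the 10 was −0.98 beside −0.02 for all tested genes, and −0.59 with the length offset. The count of 0 rises is by edgeR; at an unadjusted p under 0.05 1 gene rose (Col6a2), DESeq2 called 0, and with the length offset 1 rose (Col6a3) and 6 fell, where 25.3% rose and 23.8% fell of all genes. The same 6 genes fell in every alternative that was run. With BMP2 against vehicle, 4 genes rose (the 3 collagen VI genes and Nid2) and 3 fell (Col4a1, Col4a2 and Lamc1), where 11.5% of all tested genes changed, 5.33% upwards and 6.15% downwards. The median of the 10 was −0.15 beside 0.00 for all genes, and −0.03 with the offset. The 7 calls became 4 without vehicle replicate 1 (Col6a1, Col6a2, Col4a2 and Lamc1) and 3 without vehicle replicate 2 (Col6a1, Col6a2 and Lamc1). BMP2 exceeded TGFβ1 for 8 of the 10 genes and fell below it for 0, where 61.4% of all genes differed, 28.1% upwards and 33.3% downwards. There the median was 0.72 beside −0.02, and 0.74 with the offset. The count of 0 lower genes was the same at an unadjusted p under 0.05 and by DESeq2, which called 7 genes higher. Without TGFβ1 replicate 1 the count of 8 became 5, with Col6a3, Col4a1 and Col4a2 lost, and with the offset it became 6, with Col6a3 and Col4a2 lost.

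**Figure D4:**
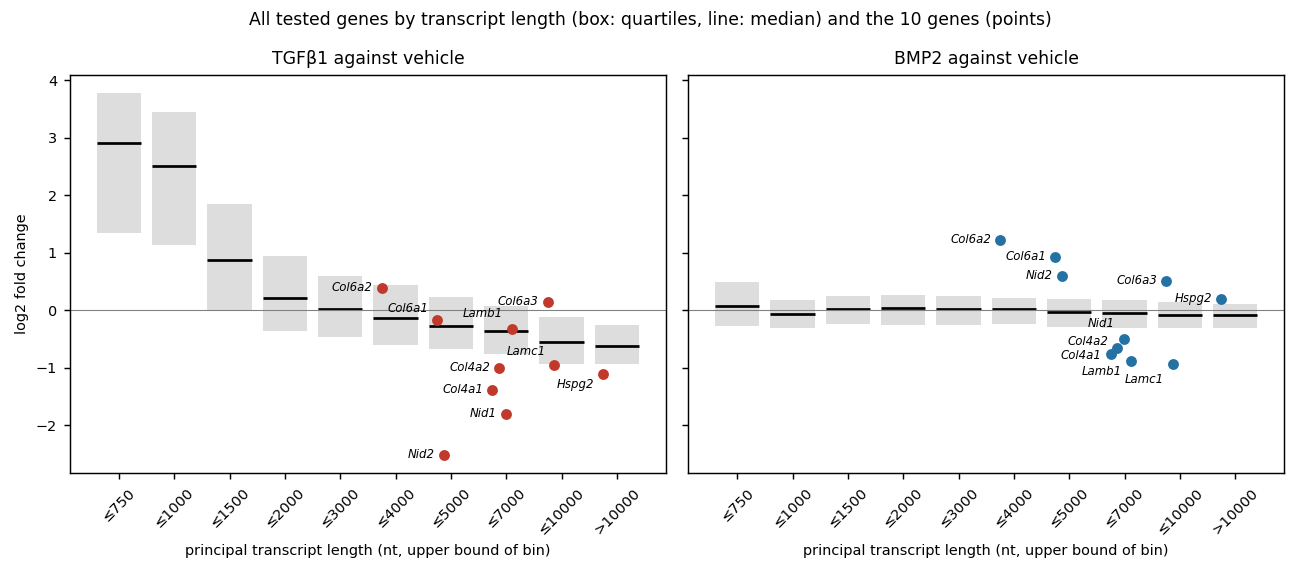
Log2 fold change by class of principal transcript length in nt (the place of a point within its class has no meaning), for TGFβ1 and BMP2 against vehicle; boxes are the quartiles and lines the median of all tested genes, and named points are the 10 genes. For TGFβ1 the median falls from 2.91 to −0.61 along the classes, and for BMP2 it stays between −0.08 and 0.08.

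The ratio of transcripts between chains of 1 molecule, and between the nidogens, took different values in the 3 groups. These ratios are per kb of gene length and are taken within a library, so the scaling of libraries does not enter them, although the length trend of the TGFβ1 libraries does. The ratio of Col6a3 to Col6a1 had a geometric mean of 0.164 with vehicle (0.154 to 0.175), 0.205 with TGFβ1 (0.204 to 0.207) and 0.124 with BMP2 (0.107 to 0.137), with no overlap. The ratio of Col6a2 to Col6a1 was 0.361, 0.530 and 0.442 in the same order, again without overlap (0.360 to 0.362, 0.502 to 0.560 and 0.429 to 0.453). The α2 and α1 chains join in equal number, and the ratio of their transcripts depends on the length used: with principal transcripts it was 0.712, 1.05 and 0.872.

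The ratio of Col4a1 to Col4a2 was 0.498 with vehicle (0.496 to 0.500), 0.384 with TGFβ1 (0.365 to 0.405) and 0.460 with BMP2 (0.437 to 0.498), although the protein trimer holds more α1 than α2. The nidogens moved furthest: Nid2 was 11.3 times Nid1 with vehicle, 6.92 times with TGFβ1 and 24.1 times with BMP2. Lamb1 was 0.034 of Lamc1 with vehicle, 0.053 with TGFβ1 and 0.035 with BMP2, on the few counts of Lamb1. The length offset moved 2 of the ratios beyond the spread between libraries: for Col6a3 to Col6a1 the log2 difference was 0.75 in place of 0.32 for TGFβ1 against vehicle and −1.08 in place of −0.73 for BMP2 against TGFβ1, and for Nid1 to Nid2 it was 0.94 in place of 0.70 for TGFβ1 against vehicle. Exact 2-sided permutation tests over libraries, the only tests made of the ratios, cannot pass here, since the smallest p they allow is 0.333 for 2 against 2 libraries and 0.2 for 3 against 2. After adjustment over the 15 tests no p was under 0.416, so differences between ratios are given as values only.

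**Figure D5:**
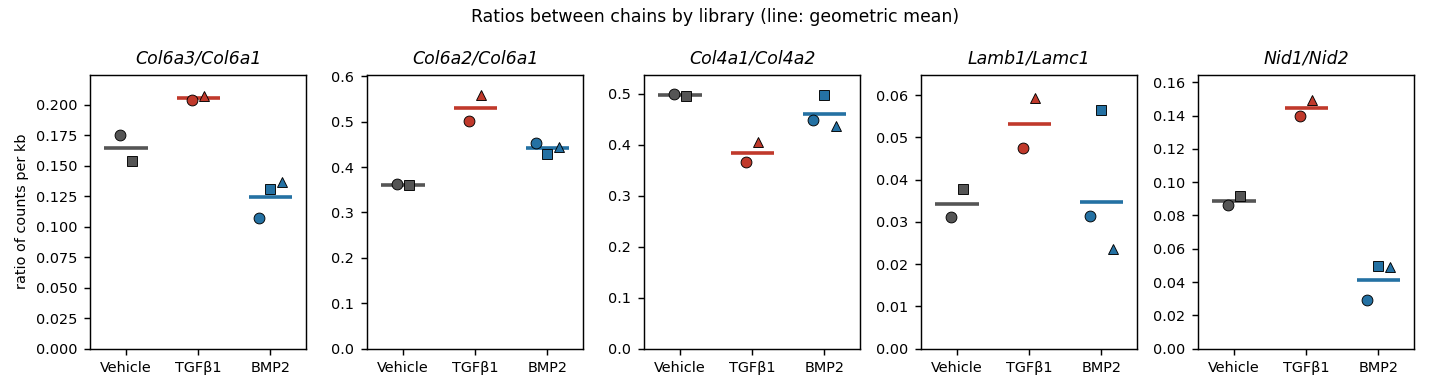
Ratio of counts per kb of gene length between paired chains in each library, on linear axes from 0; symbols are single libraries (circle, square and triangle for replicates 1, 2 and 3) and lines are geometric means. The groups do not overlap for both collagen VI ratios, where Col6a3 to Col6a1 runs from 0.107 to 0.137 with BMP2 and from 0.204 to 0.207 with TGFβ1.

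Other matrix genes of basement membranes and the pericellular space moved in both directions. Of 38 such genes 28 were tested. With TGFβ1 9 rose and 13 fell (median −0.57; 9 and 11, median −0.39, with the length offset), with BMP2 3 rose and 8 fell (median −0.18), and between the ligands 13 were higher and 9 lower with BMP2 (median 0.28). The shares of all genes given above for each comparison are the background to these counts. Fbln2, which encodes fibulin-2, a partner of nidogen and perlecan, rose with TGFβ1 from 7.62 and 8.25 to 155 and 151 CPM (4.27, SE 0.15, adjusted p = 1.07e-08) and stood at 9.69, 12.2 and 10.5 CPM with BMP2. Col8a2, of the short-chain collagen VIII, rose with TGFβ1 from 7.76 and 7.66 to 83.1 and 102 CPM (3.58, SE 0.18, adjusted p = 5.9e-08). Col7a1, the collagen of anchoring fibrils, rose from 1.74 and 0.957 to 25.6 and 24.1 CPM (4.21, SE 0.26, adjusted p = 2.79e-07). These genes rose where the collagen IV, perlecan and nidogen genes fell.

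With BMP2, the matrix genes of smallest p all fell. Col8a1 went from 17.4 and 18.2 to 5.32, 5.57 and 7.52 CPM (−1.53, SE 0.16, adjusted p = 0.000247), and Lama5 fell as given above. Smoc1, which encodes a basement membrane protein that binds calcium, went from 13.8 and 13.8 to 6.69, 6.89 and 5.74 CPM (−1.10, SE 0.15, adjusted p = 0.000999). Pxdn, the peroxidase that crosslinks collagen IV through a sulfilimine bond, went from 21.8 and 19.5 to 10.4, 11.5 and 11.1 CPM (−0.91, SE 0.13, adjusted p = 0.00115). Col8a1, Smoc1 and Pxdn were higher with TGFβ1 than with vehicle, by 1.35, 1.96 and 1.68, so that Pxdn moved opposite to the collagen IV genes with TGFβ1 and with them under BMP2. Between the ligands Fbln2 (−3.83), Smoc1 (−3.06), Pxdn (−2.59) and Col8a2 (−2.85) were lower with BMP2. The minor collagen IV chain genes Col4a5 and Col4a6, named here after their values were seen, share the head-to-head arrangement of Col4a1 and Col4a2 on the X chromosome. Col4a5 stood at 28.2 and 35.6 CPM with vehicle, 4.27 and 4.58 with TGFβ1, and 20.2, 29.0 and 25.6 with BMP2. It fell with TGFβ1 by 2.85 (SE 0.21, adjusted p = 1.4e-06) and did not pass with BMP2 (−0.37, SE 0.17, adjusted p = 0.204). Col4a6 fell with TGFβ1 by 2.27 (SE 0.32, adjusted p = 0.000149) and did not pass with BMP2 (−0.28, SE 0.25, adjusted p = 0.526).

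The list of 16 genes of receptors that bind these matrix proteins or other collagens was tested in full. With TGFβ1 5 rose and 7 fell (median −0.10), and 5 and 5 with the length offset (median 0.10). With BMP2 2 rose and 2 fell (median −0.31). Between the ligands 6 were higher and 6 lower with BMP2 than with TGFβ1 (median 0.03), and 5 and 6 with the offset (median −0.18). Of all tested genes, 30.4% rose and 25.8% fell with TGFβ1, and 5.33% rose and 6.15% fell with BMP2. Between the ligands 28.1% of all tested genes were higher and 33.3% lower with BMP2. Itga1, the α1 chain of a collagen-binding integrin that prefers collagen IV, went from 42.8 and 34.4 to 16.8 and 16.9 CPM with TGFβ1 (−1.20, SE 0.15, adjusted p = 6.11e-05, and −0.50 with the length offset). Ddr2, a receptor kinase for fibrillar collagens, went from 225 and 201 to 111 and 130 CPM (−0.82, SE 0.14, adjusted p = 0.000462), but with the length offset the value of −0.21 did not pass (adjusted p = 0.162). Sdc4, the heparan sulfate proteoglycan syndecan-4, rose with TGFβ1 from 243 and 268 to 463 and 457 CPM (0.85, SE 0.12, adjusted p = 0.000186).

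With BMP2, Antxr1, a receptor that binds collagen VI, went from 64.1 and 59.4 to 27.5, 28.5 and 30.8 CPM (−1.09, SE 0.11, adjusted p = 0.000159), while the collagen VI genes rose. Antxr1 also fell with TGFβ1, to 37.6 and 39.8 CPM (−0.67, SE 0.12, adjusted p = 0.000727). With the length offset that fall was −0.355 (adjusted p = 0.0199). Cspg4, which encodes NG2, a proteoglycan that binds collagen VI, rose from 198 and 184 to 332, 287 and 307 CPM with BMP2 (0.69, SE 0.12, adjusted p = 0.00464) and to 310.2 and 334 CPM with TGFβ1 (0.75, SE 0.13, adjusted p = 0.000678). Ddr1, a receptor kinase for collagen IV and other collagens, rose from 34.5 and 31.8 to 76.3, 68.1 and 67.2 CPM with BMP2 (1.09, SE 0.12, adjusted p = 0.00026), and stood above its level with TGFβ1 by 0.78. BMP2 against TGFβ1 was 1.38 for Itga1 (0.73 with the length offset) and −0.98 for Sdc4.

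Basement membrane genes are also made by cells other than chondrocytes, so marker genes were read in the same libraries. The 12 chondrocyte markers, the check of the labelled cell type, were all tested and summed to 58300 to 58500 CPM with vehicle, 37100 to 43200 with TGFβ1 and 50400 to 57200 with BMP2. Col2a1, named here after its values were seen, held most of that sum, with 35166 and 35844, 26949 and 32200, and 34448, 28719 and 29677 CPM in the same order. It did not pass with TGFβ1 (−0.26, adjusted p = 0.146, and −0.08 with the length offset) or with BMP2 (−0.20, adjusted p = 0.394). With TGFβ1 8 of the 12 markers fell and 0 rose (0 also at an unadjusted p under 0.05 and by DESeq2), where 25.8% of all tested genes fell and 30.4% rose. With BMP2 1 rose and 2 fell, where 5.33% of all genes rose and 6.15% fell. The 10 endothelial markers (1 tested, Pecam1) summed to 0.957 to 1.20, 1.60 to 1.62 and 1.72 to 2.26 CPM in the same order, and Cdh5 and Cldn5 were at 0 in all 7 libraries. Pecam1 had 0 and 0 counts with vehicle, 4 and 6 with TGFβ1, and 13, 12 and 16 with BMP2. With vehicle and TGFβ1 it did not exceed 0.458 CPM, so it passed the filter on low counts only through the BMP2 libraries. Its calls, higher with each ligand than with vehicle and higher with BMP2 than with TGFβ1, are therefore not read as a change. Pericyte and smooth muscle markers (3 of 8 tested) summed to 55.4 to 55.8, 97.1 to 106 and 29.4 to 31.5 CPM, and fibroblast and synovial markers (5 of 8 tested) to 41.7 to 51.7, 98.0 to 109 and 22.5 to 34.9 CPM. The genes that carry these sums are named here after their values were seen. Pdgfrb held most of the pericyte sum, with 54.3 and 52.5 CPM with vehicle, 92.0 and 100.7 with TGFβ1, and 28.3, 29.2 and 27.1 with BMP2. Of the 5 tested fibroblast and synovial markers 2 rose with TGFβ1, both without and with the length offset, where 30.4% and 25.3% of all tested genes rose. Ly6a, 1 of these 2, held 57.4 and 65.9 CPM of the sum with TGFβ1 and rose by 3.996 (2.17 with the offset). Fap (−0.08), Pdgfra (−0.23, and 0.245 with the offset) and Cd34 (−1.05) did not pass. Adipocyte markers (3 of 6 tested) summed to 60.4 to 62.3, 55.6 to 62.5 and 48.8 to 62.2 CPM, with overlap between the groups. Within that sum Lpl (−3.82) and Pparg (−2.22) fell with TGFβ1 and Fabp4 rose (3.03, and 1.08 with the offset). Skeletal muscle markers (2 of 6 tested) summed to 8.96 to 19.5, 36.5 to 48.6 and 9.69 to 14.9 CPM, with Myod1 at 0. The tested ones, Tnnt3 and Mylpf, rose with TGFβ1 by 1.39 and 2.77, and with the offset their values of −0.42 and 0.11 did not pass. Leukocyte markers (3 of 6 tested) summed to 5.88 to 5.98, 6.41 to 9.86 and 4.04 to 4.77 CPM, with Cd3e at 0. The part of these other cell types in the changes above was not tested.

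Genes whose pattern over the 7 libraries was most like that of the collagens were sought among 6145 tested genes whose mean log2 CPM reached 4. The measure was the root-mean-square difference of log2 CPM, centred per gene, from the mean profile. Closest to the mean of the 3 collagen VI genes were Sdc3, which encodes syndecan-3, at 0.0736, the growth factor gene Vegfa at 0.0929 and Fam19a5 at 0.0961. Closest to the mean of Col4a1 and Col4a2 were the semaphorin gene Sema3d at 0.0496, the transcription factor gene Foxc1 at 0.0903 and Ezr, which encodes the membrane linker ezrin, at 0.0990.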

How the data were processed

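Bulk RNA sequencing of 7 libraries was used: 2 with vehicle, 2 with TGFβ1 and 3 with BMP2. The authors deposited 1 whole-number count per gene name and library, with no normalisation, and a gene length column in nt; that length equals the summed length of all exons of the gene in GENCODE vM21 for 93.54% of the 45704 names matched. Per the submitters' processing notes, the tools were STAR 2.4.2a, featureCounts of Subread, cutadapt and DESeq2, and the build was mm10. The sources used here state neither the annotation nor the strand setting, nor how reads with several matches were handled.

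Counts were fitted with edgeR 4.0.16 (R 4.3.3): filterByExpr with groups, TMM, and 1 quasi-likelihood fit over all 7 libraries with 4 residual degrees of freedom (common biological coefficient of variation 0.133), 2-sided, with Benjamini-Hochberg adjustment over 13367 genes and a threshold of 0.05. The fits were tested on simulated data with known changes. Without a length trend few unchanged genes were called. With a length trend in the TGFβ1 libraries many were called without the length offset and few with it. The simulated trend was a straight line in log2 transcript length with no GC trend. The outcome therefore does not show how fully the offset removes the measured trend. The 3 comparisons were TGFβ1 and BMP2 each against vehicle, and BMP2 against TGFβ1. For the length offset, lowess curves were fitted in each library to log2 CPM (prior count 1) against principal transcript length (span 0.15) and GC content (span 0.3), in 3 iterations; 97.27% of tested genes had a length. Other alternatives were DESeq2 1.42.0, DESeq2 size factors within edgeR, all genes unfiltered, a replicate block, transcripts of at least 2000 nt, only the libraries compared, and each library left out; combining the offset with each library left out, and applying it to ratios, was chosen after the data were seen. Ratios of chains, per kb of deposited length or of principal transcript, used exact permutation tests (scipy 1.17.1). Same-numbered replicates were checked for pairing.

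The 10 genes and the lists were chosen with earlier results of these data known. Named are all 10, the laminin α chains and, per comparison, the 4 other matrix genes and 3 receptors of smallest p among those called whose mean log2 CPM reached 2; Lamb2, Col4a5 and Col4a6 were added after their values were seen.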

Additional observations from a re-analysis of the deposited data

How the results depend on the processing

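The falls of the same 6 genes with TGFβ1 passed in every alternative run, with 6 to 8 of the 10 genes called. Leaving out 1 library moved the count for BMP2 against vehicle to between 3 and 8 with and without the offset (7 in the report), and that for BMP2 against TGFβ1 to between 5 and 8. Over the same fits the other matrix genes called for BMP2 numbered 6 to 12 (11 in the report), the receptors 2 to 5 for BMP2 (4 in the report) and 6 to 14 for TGFβ1 (12 in the report). For all genes, leaving out 1 library gave 557 to 1698 for BMP2 against vehicle (830 and 706 with the offset and without vehicle replicate 1 or 2); for TGFβ1 against vehicle the offset gave 4955 and 4996 genes without the same libraries. In transcripts of at least 2000 nt, where fewer genes were tested (9254), 4657 genes were called for TGFβ1 against vehicle and 5299 between the ligands. Deviations of same-numbered libraries from their group means correlated between −0.139 and −0.001. This check cannot decide whether the replicate numbers pair the libraries, since the 2 libraries of a group deviate as mirror images. With the replicate block 771 genes were called for BMP2 against vehicle, 5 of the 10 genes passed there, without Col6a3 (0.49, adjusted p = 0.123) and Nid2 (0.60, adjusted p = 0.0912), and 6 passed between the ligands, without Col6a3 (0.39) and Col4a2 (0.34).

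Log2 fold changes and ratios that changed sign follow, with the ratios that the offset moved without a change of sign, and the cause was not tested. The medians of the receptors and the values of Tnnt3 and Pdgfra that changed sign are given in the report. Col6a1 with TGFβ1 was 0.024 in transcripts of at least 2000 nt. Lamb1 with TGFβ1 was 0.039 with the block, and 0.002 and 0.001 with the offset and without vehicle replicate 2 or TGFβ1 replicate 1. Lamc1 between the ligands was −0.24 with the offset, −0.16 in transcripts of at least 2000 nt, −0.018 without TGFβ1 replicate 3, −0.003 without BMP2 replicate 3, and at most 0.07 (without vehicle replicate 1) when 1 library was left out. With the offset it was −0.225 and −0.221 without vehicle replicate 1 or 2, −0.168 and −0.323 without TGFβ1 replicate 1 or 3, and −0.239, −0.234 and −0.267 without BMP2 replicate 1, 2 or 3. Col7a1 with BMP2 was −0.14 without vehicle replicate 2 and 0.71 without vehicle replicate 1. The log2 ratio of Lamb1 to Lamc1 with BMP2 against vehicle, 0.02 in the report, ran from −0.33 without BMP2 replicate 2 and −0.12 without vehicle replicate 1 to 0.30. With the offset the log2 ratio of Col6a3 to Col6a1 was 0.75 for TGFβ1 against vehicle and −1.08 between the ligands, and that of Nid1 to Nid2 was 0.94 for TGFβ1, an alternative added after the data were seen. Depth limits Lamb1, with 8 to 23 counts per library.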
